A study of Mus musculus with 6 samples.

Results

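Proteoglycans of the extracellular matrix and cell surface are described here across the bulk transcriptomes of F1 mouse embryonic stem cells (mESCs) and of cardiac precursor cell cultures (CPCCs). The set holds 10 genes of the 16279 listed in at least 1 of the 2 gene tables, taken by symbol: *Dcn*, *Bgn*, *Aspn*, *Lum*, *Fmod*, *Ogn*, *Vcan*, *Hspg2*, *Gpc3* and *Gpc4*. The mESCs were male hybrids of a C57BL/6J mother and a CAST/EiJ father, taken from 3 blastocysts as clones grown from single cells and kept in 2i medium with LIF. CPCCs were made in vitro from those clones through hanging drops, ascorbic acid and dissociated embryoid bodies, and were grown with EGF and Fgf2 to the fourth passage, so both groups share the same hybrid genome and neither carries a transgene in the labels. There were 3 libraries of mESCs (S01, S02 and S03) and 3 of CPCCs (S04, S05 and S06), named by their columns because the columns carry no replicate number. Each group comes from 3 clones of 1 cross, and CPCCs are mixed cultures in which fewer cells of a type and less RNA per cell cannot be told apart.

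A proteoglycan is a core protein that carries sulfated sugar chains, the glycosaminoglycans, which are built onto it in the Golgi. Small leucine-rich proteoglycans (SLRPs) are secreted and bind collagen fibrils: decorin (*Dcn*) and biglycan (*Bgn*) usually carry chondroitin or dermatan sulfate, lumican (*Lum*), fibromodulin (*Fmod*) and osteoglycin (*Ogn*) belong to the keratan sulfate classes, and asporin (*Aspn*) usually carries no chain. Versican (*Vcan*) is a large hyaluronan-binding chondroitin sulfate proteoglycan of loose matrix that the embryonic heart needs for its endocardial cushions. Perlecan (*Hspg2*) is a heparan sulfate proteoglycan of basement membranes, and the glypicans *Gpc3* and *Gpc4* are heparan sulfate proteoglycans anchored in the cell membrane by a lipid, where they act on Wnt, Hedgehog, BMP and FGF signals.

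Every member was listed for CPCCs and 6 of 10 were also listed for mESCs. The 6 members in both tables (*Bgn*, *Ogn*, *Vcan*, *Hspg2*, *Gpc3* and *Gpc4*) passed the filter on low counts and were all higher in CPCCs, whereas 31.7% of the 12471 tested genes were called higher and 29.7% lower at an adjusted p under 0.05. Together these calls cover 61.4% of the tested genes. In all 6 members the lowest CPCC value exceeded the highest mESC value, which held for 35.3% of the tested genes (34.5% were separated the other way). A log2 fold change of at least 3 was reached by 4 of the 6 (*Bgn*, *Ogn*, *Gpc4* and *Vcan*) and by 7.19% of the tested genes. The other 4 (*Dcn*, *Lum*, *Fmod* and *Aspn*) were listed for CPCCs only, as were 15.5% of the genes in either table (4.67% were listed for mESCs only), and each table lists only genes with a sum of at least 10 counts over its 3 libraries. No member was listed for mESCs only or called lower in CPCCs.

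RefSeq promoters (GRCm38.p6) were matched by symbol for 8 of the 10 members, all but *Dcn* and *Lum*. The 250 bases before the transcription start are shown for 4 of them, 5′ to 3′ on the gene's strand with CG dinucleotides in capitals, because the members differ most here in CG content. The glypican *Gpc3* (chrX:52613975-52614224, minus strand) stands for the CG-rich end and *Vcan* (chr13:89742513-89742762, minus strand) for the middle. *Bgn* (chrX:73483351-73483600, plus strand) and *Ogn* (chr13:49607765-49608014, plus strand) are 2 of the CG-poor ones.
Gpc3 promoter: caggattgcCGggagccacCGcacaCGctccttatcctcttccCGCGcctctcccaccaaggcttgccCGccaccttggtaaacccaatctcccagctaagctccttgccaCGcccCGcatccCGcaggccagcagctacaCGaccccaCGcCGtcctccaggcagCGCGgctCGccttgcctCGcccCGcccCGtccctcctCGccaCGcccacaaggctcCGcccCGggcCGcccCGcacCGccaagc
Vcan promoter: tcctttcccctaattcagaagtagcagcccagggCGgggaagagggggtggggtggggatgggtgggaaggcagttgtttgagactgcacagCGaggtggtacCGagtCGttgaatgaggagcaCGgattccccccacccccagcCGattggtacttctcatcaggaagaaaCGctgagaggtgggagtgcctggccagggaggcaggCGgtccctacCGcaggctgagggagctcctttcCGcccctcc
Bgn promoter: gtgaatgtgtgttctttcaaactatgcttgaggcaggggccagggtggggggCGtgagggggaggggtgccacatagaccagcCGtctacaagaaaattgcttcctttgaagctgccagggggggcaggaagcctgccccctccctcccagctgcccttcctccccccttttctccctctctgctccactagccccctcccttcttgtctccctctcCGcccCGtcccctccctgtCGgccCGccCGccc
Ogn promoter: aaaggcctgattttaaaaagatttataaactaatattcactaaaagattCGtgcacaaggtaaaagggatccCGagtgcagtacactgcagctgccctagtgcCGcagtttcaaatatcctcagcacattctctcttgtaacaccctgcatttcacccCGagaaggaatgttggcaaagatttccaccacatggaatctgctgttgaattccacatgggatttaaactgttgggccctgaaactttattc

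The *Gpc3* promoter held 25 CG dinucleotides, 0.94 times the number its base composition would give by chance (the observed over expected ratio). The ratio was 0.81 for *Hspg2* and 0.71 for *Gpc4*, so the 3 heparan sulfate members lay above the cut of 0.6 that 34.0% of all 32851 promoters of the same length passed. The other 5 lay below it, at 0.42 for *Vcan*, 0.37 for *Ogn*, 0.36 for *Aspn*, 0.28 for *Bgn* and 0.12 for *Fmod*, against a median of 0.37 over all promoters. Of these 5, *Bgn* was GC-rich without being CG-rich, with 64.4% G or C and 7 CG dinucleotides, while *Aspn* was AT-rich, with 30.0% G or C. The 3 CG-rich members all had more than 9 CPM in every mESC library, and of the 5 others only *Vcan* was. This pairing is a description of 8 genes that were not drawn as a sample.

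Motifs were searched on both strands of the same 250 bases. The GC box (GGGCGG) was present in 5 of the 8 members (*Bgn*, *Vcan*, *Hspg2*, *Gpc3* and *Gpc4*) and in 32.7% of all promoters. The TATA box (TATAAA) was present in *Aspn* and *Ogn*, and in 12.4% of all promoters. The MCAT element (CATTCC), the letters read by TEAD factors, was present in *Ogn* and *Gpc4* and in 12.6% of all promoters. The CCAAT box (CCAAT) was present in *Aspn*, *Vcan* and *Gpc3* (33.8% of all promoters), the E box (CANNTG) in 5 members (66.2%) and the AP-1 site (TGANTCA) in 0 of 8 (6.75%). No match of a motif overlapped a match of another, though the TATA matches of *Ogn* and the matches of the GC box nearest the start of *Bgn* overlapped among themselves. A match is not a measured binding site.

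Values are given as CPM, the estimated counts scaled to 1000000 per library with TMM normalization, and positions are those of the tables on GRCm38. Library totals were 6442639 to 6907330 counts in mESCs and 8468819 to 11436062 in CPCCs, at which 3 counts equal 0.298 to 0.464 CPM. Differences between the groups are log2 fold changes of CPCCs over mESCs with a standard error (SE). Adjusted p-values are those of the quasi-likelihood method in edgeR, corrected by the Benjamini-Hochberg procedure over all tested genes. An exact permutation test of 1 gene over 3 against 3 libraries cannot go below p = 0.1, two-sided, and gave 0.1 for each of the 6 tested members. The median log2 fold change over all tested genes was 0.03.

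*Bgn* (chrX:73483601-73495937, plus strand) encodes biglycan, which binds collagen and can also signal through Toll-like receptors when it is released from matrix. Its mESC libraries held 0.927, 0.147 and 1.76 CPM in S01, S02 and S03, from 6, 1 and 12 counts. The CPCC libraries held 941, 1148.5 and 775 CPM in S04, S05 and S06, from 9461, 9466 and 6761 counts. *Bgn* was near the detection limit in every mESC library and abundant in every CPCC library. The mESC mean was 0.944 ± 0.805 CPM and the CPCC mean 955 ± 187 CPM (SD, n = 3 each), and the log2 fold change was 9.96 (SE 0.48, adjusted p = 1.61e-06 from edgeR). This was the 5th largest rise of the 12471 tested genes. The 19 mESC counts on which the fold rests have a 95% Poisson interval of 11.4 to 29.7, for counting error only, and without S03 the log2 fold change was 10.78.

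*Ogn* (chr13:49608071-49624501, plus strand) encodes osteoglycin, also called mimecan. It had 1.39, 0.442 and 0.585 CPM in the mESC libraries, from 9, 3 and 4 counts, and 68.9, 81.0 and 43.9 CPM in the CPCC libraries. The mESC libraries lay near the level of 3 counts and all CPCC libraries lay far above it. The means were 0.806 ± 0.512 and 64.6 ± 18.9 CPM (SD, n = 3 each), with a log2 fold change of 6.31 (SE 0.43, adjusted p = 6.01e-06 from edgeR), the 84th largest rise. The 16 mESC counts have a 95% Poisson interval of 9.15 to 26.0. Without S01 the log2 fold change was 6.93.

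*Dcn* (chr10:97479500-97518164, plus strand), decorin, binds collagen and sequesters TGF-beta, and *Lum* (chr10:97565501-97572704, plus strand), lumican, is best known from the cornea, where it keeps collagen fibrils thin and evenly spaced. *Dcn* had 40.8, 71.5 and 28.6 CPM in S04, S05 and S06, from 410, 589 and 249 counts. *Lum* had 11.9, 111.5 and 19.3 CPM, from 120, 919 and 168 counts. Both were highest in S05, and for *Lum* the S05 value stood well above the other two. With the mESC level set at 3 counts per library, *Dcn* (46.9 ± 22.1 CPM, SD, n = 3) was at least 105-fold higher in CPCCs and *Lum* (47.6 ± 55.5 CPM) at least 106-fold. Without S05 these bounds became 77.4-fold for *Dcn* and 34.8-fold for *Lum*. Of the 2518 genes listed for CPCCs only, 27.1% had a bound of at least 10-fold.

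*Fmod* (chr1:134037515-134048278, plus strand), fibromodulin, and *Aspn* (chr13:49544443-49567563, plus strand), asporin, were scarce. *Fmod* had 0.995, 2.18 and 0.803 CPM in the CPCC libraries, from 10, 18 and 7 counts, and *Aspn* had 1.19, 0.607 and 0.344 CPM, from 12, 5 and 3 counts. In S06 *Aspn* was at the level of 3 counts. The bounds were at least 2.96-fold for *Fmod* and at least 1.60-fold for *Aspn*, and without S04 the bound for *Aspn* was 1.06-fold. When the missing mESC values were set to 0 or to 3 counts, *Dcn* and *Lum* passed the filter on low counts and were called higher. *Fmod* and *Aspn* were removed by that filter and were not tested, so no fold change beyond the bounds was computed for them.

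**Figure D1:**
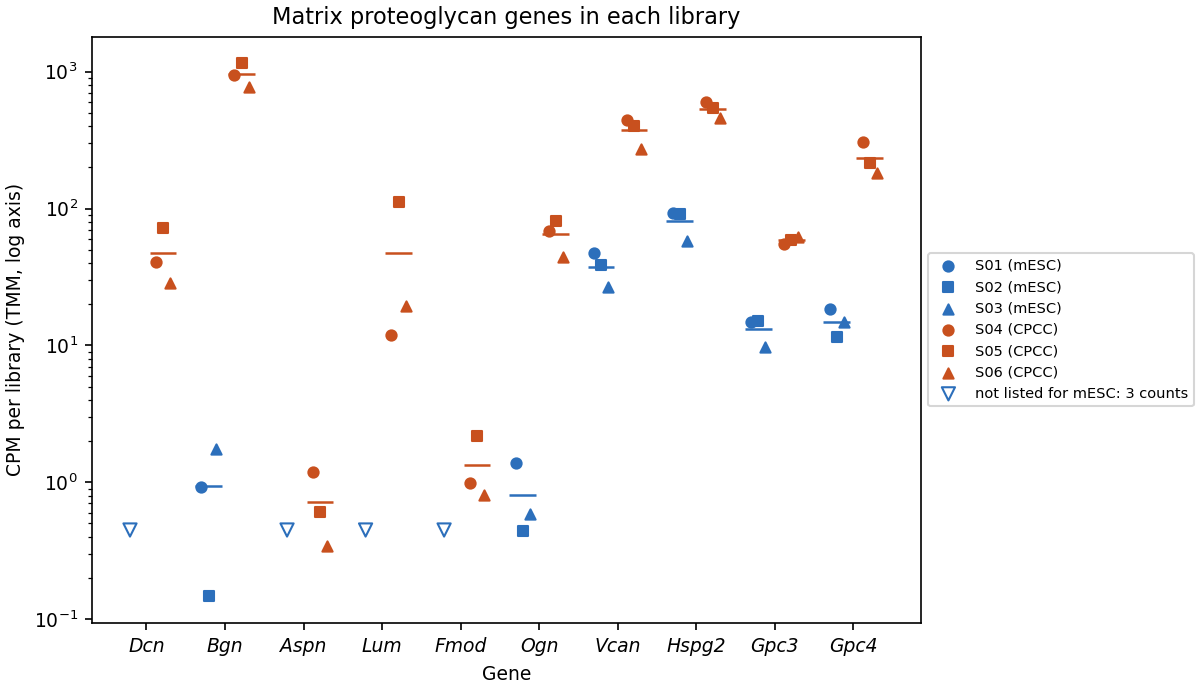
Level of the 10 matrix proteoglycan genes in each library, in CPM on a log axis (TMM normalization), with blue marks for the 3 mESC libraries, orange marks for the 3 CPCC libraries and a short line for each group's mean. Open triangles stand at 3 counts per library for the 4 genes not listed for mESCs. The CPCC marks lie above the mESC marks for all 6 genes measured in both, and *Lum* spreads from 11.9 to 111.5 CPM among the CPCC libraries.

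*Vcan* (chr13:89655310-89742513, minus strand) was already expressed in mESCs, at 47.3, 38.4 and 26.6 CPM, and reached 444, 399.9 and 274 CPM in CPCCs. Its lowest CPCC library was above its highest mESC library. The means were 37.4 ± 10.4 and 373 ± 88.4 CPM (SD, n = 3 each), with a log2 fold change of 3.32 (SE 0.27, adjusted p = 1.56e-05 from edgeR). *Hspg2* (chr4:137468803-137570631, plus strand) held 92.7, 91.7 and 57.5 CPM in the mESC libraries and 596, 541 and 456 CPM in the CPCC libraries, again without overlap. Its means were 80.6 ± 20.04 and 531 ± 70.7 CPM, with a log2 fold change of 2.72 (SE 0.23, adjusted p = 1.62e-05 from edgeR). *Vcan* ranked 754th and *Hspg2* 1087th by rise among the tested genes.

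The glypicans are neighbours on the X chromosome and started from similar levels. *Gpc3* (chrX:52272427-52613975, minus strand), the gene of the Simpson-Golabi-Behmel overgrowth syndrome, went from 14.8, 15.2 and 9.66 CPM in the mESC libraries to 55.5, 59.2 and 62.4 CPM in the CPCC libraries. *Gpc4* (chrX:52053018-52164924, minus strand), which lies 107.5 kb from *Gpc3* on the same strand, went from 18.5, 11.5 and 14.8 CPM to 306, 214 and 181 CPM. Per kilobase of principal transcript their mESC libraries overlapped (4.36 to 6.84 CPM per kb for *Gpc3*, 4.33 to 6.996 for *Gpc4*), and in CPCCs *Gpc4* (68.2 to 115.5) lay above *Gpc3* (25.04 to 28.1) in each library. The log2 fold change was 2.16 for *Gpc3* (SE 0.23, adjusted p = 6.43e-05 from edgeR), from 13.2 ± 3.09 to 59.0 ± 3.44 CPM (SD, n = 3 each). It was 3.97 for *Gpc4* (SE 0.28, adjusted p = 6.63e-06 from edgeR), from 14.9 ± 3.54 to 234 ± 65.0 CPM. Whether the 2 rises differ was not tested.

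**Figure D2:**
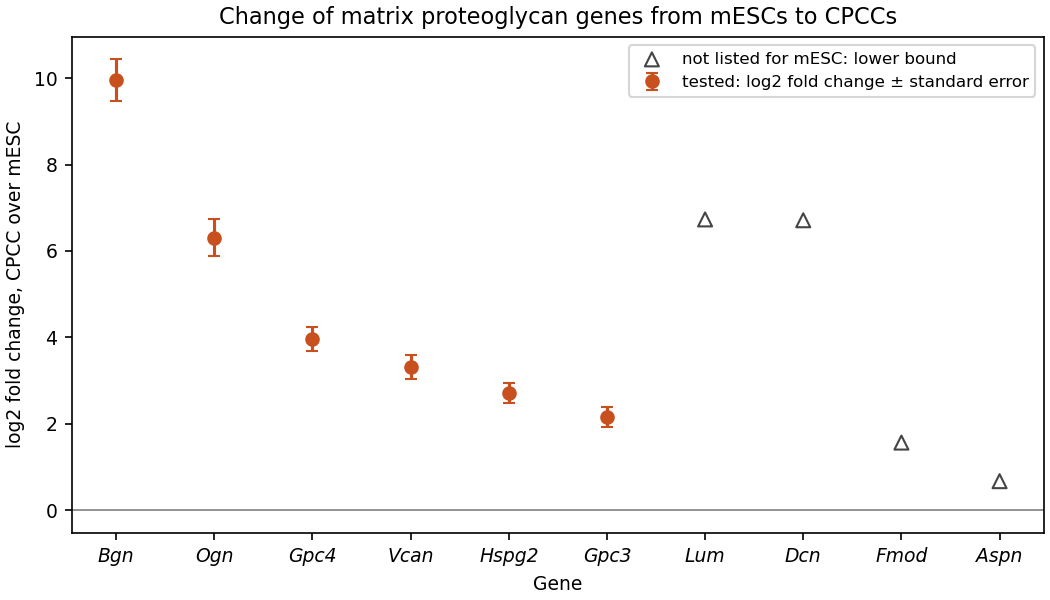
Log2 fold change of CPCCs over mESCs for the matrix proteoglycan genes, with filled circles and bars for the estimate ± standard error of the 6 tested genes and open triangles for the lower bound of the 4 genes not listed for mESCs. The estimates run from 2.16 for *Gpc3* to 9.96 for *Bgn*, and the bounds of *Lum* and *Dcn* lie far above those of *Fmod* and *Aspn*.

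Summed over the 10 genes, the mESC level was 148 ± 33.4 CPM (176, 157 and 111) and the CPCC level 2312 ± 416 CPM (2467, 2629 and 1841; SD, n = 3 each), a ratio of 15.6 with no overlap between the groups. The make-up of the sum differed as well. In mESCs *Hspg2* made up 54.3% of the summed CPM, *Vcan* 25.1%, *Gpc4* 10.4% and *Gpc3* 8.93%, while *Bgn* made up 0.735%. In CPCCs *Bgn* made up 41.3% (38.1% to 43.7% over the libraries), *Hspg2* 23.2%, *Vcan* 16.0% and *Gpc4* 10.1%. These shares are of reads, in which long transcripts such as those of *Hspg2* weigh more.

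Levels of different genes were therefore set side by side as CPM per kilobase of transcript, on 2 lengths from GENCODE M21, the principal transcript and all exons merged. Merged exons were computed first and the principal transcript was added after those values had been seen. In CPCCs *Bgn* stood first on either length, at 395 CPM per kb on the principal transcript and 157 on merged exons, with every library above those of the next gene. *Gpc4* had 88.2 CPM per kb on both. *Vcan*, whose spliced forms differ greatly in length, had 161 CPM per kb on a principal transcript of 2.32 kb and 25.8 on merged exons of 14.5 kb, so its place in the order could not be settled from gene counts.

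Below these, *Hspg2* had 37.4 CPM per kb on the principal transcript, *Dcn* 26.7, *Gpc3* 26.6, *Ogn* 25.2 and *Lum* 19.4, and the libraries of *Dcn*, *Gpc3*, *Ogn* and *Lum* overlapped in every pair. *Hspg2* overlapped *Dcn* and *Lum*, while its lowest library (32.1) was above the highest of *Gpc3* (28.1) and of *Ogn* (31.6). On merged exons *Dcn* had 8.04. *Fmod* (0.425) and *Aspn* (0.307) came last on either length, overlapping each other and lying below all other members in each library. In mESCs *Hspg2*, *Gpc3* and *Gpc4* lay close together on the principal transcript at 5.69, 5.96 and 5.63 CPM per kb with overlapping libraries, while *Vcan* had 16.1 there and 2.59 on merged exons. *Bgn* (0.390) and *Ogn* (0.314) overlapped at the bottom.

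Among the members, the CPCC libraries differed most in the SLRPs *Lum*, *Aspn*, *Fmod* and *Dcn*. The highest library was 9.34 times the lowest for *Lum*, 3.47 times for *Aspn*, 2.72 for *Fmod* and 2.50 for *Dcn*, against a median of 1.54 and a 90th percentile of 3.17 over all tested genes. The values for *Aspn* and *Fmod* rest on 3 to 18 counts a library. *Ogn* (1.85), *Gpc4* (1.69), *Vcan* (1.62), *Bgn* (1.48), *Hspg2* (1.31) and *Gpc3* (1.12) varied less. S05 was highest for 5 of the 6 SLRPs (*Dcn*, *Bgn*, *Lum*, *Fmod* and *Ogn*), S04 for *Aspn*, *Vcan*, *Hspg2* and *Gpc4*, and S06 for *Gpc3*. S06 was lowest for 8 of the 10 members, and S04 was lowest for *Lum* and *Gpc3*. *Dcn* and *Lum* lie 47.3 kb apart on chromosome 10 with no protein-coding gene between them, yet their library order differed: S04 held more *Dcn* than S06 but less *Lum*.

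**Figure D3:**
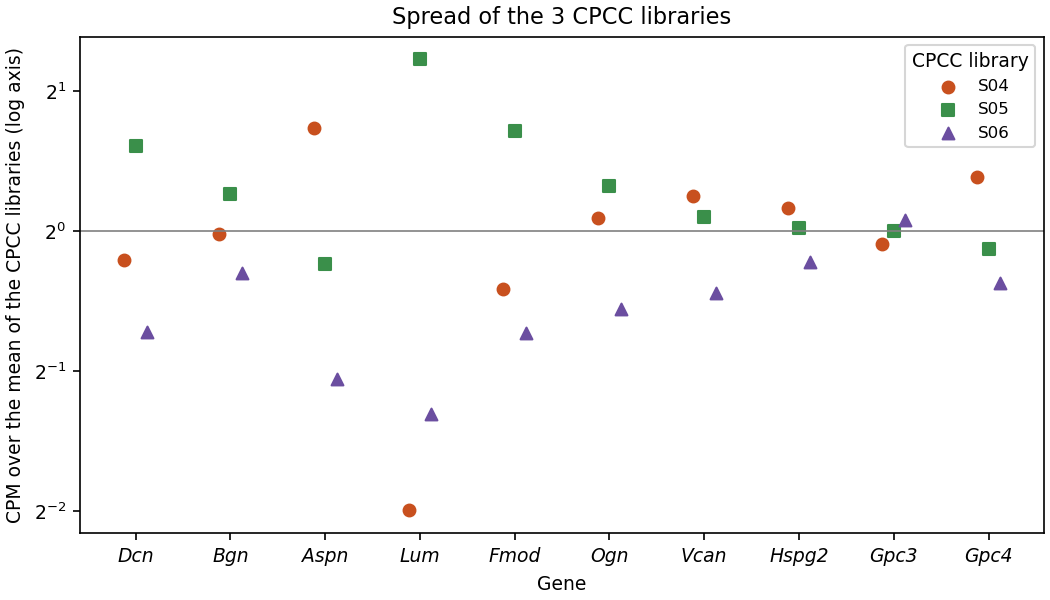
Level of each matrix proteoglycan gene in the 3 CPCC libraries, as CPM over the mean of the 3 libraries on a log axis, with a grey line at the mean. S05 is the highest library for 5 of the 6 SLRPs, S06 is the lowest for 8 of the 10 genes, and *Lum* shows the widest spread, 9.34-fold.

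The SLRP genes lie in clusters, whose other genes were looked up by position. On chromosome 10, *Kera* (keratocan), 34.2 kb past *Lum*, and *Epyc* (epiphycan), 30.4 kb past *Kera*, were in neither table. On chromosome 13, *Omd* (osteomodulin) lies between *Aspn* and *Ogn*, 15.2 kb from the former and 15.5 kb from the latter. *Omd* went the opposite way to *Ogn*, from 7.09 to 2.69 CPM, with a log2 fold change of -1.39 (SE 0.47, adjusted p = 0.0273 from edgeR). This call did not hold when S01, S02, S04 or S05 was left out (largest adjusted p 0.0918 in edgeR). *Ecm2*, 11.7 kb from *Aspn*, was listed for CPCCs only at 1.08 CPM. On chromosome 1, 116.1 kb from *Fmod*, *Prelp* was listed for CPCCs only at 5.07 CPM, at least 11.3-fold higher, and its neighbour *Optc* (opticin) at 0.647 CPM. *Aspn* and *Ogn* both lie opposite *Cenpp*, with 7 shared exonic bases for *Aspn* and 0 for *Ogn*. Whether counting used the strand is not given in the sources used here.

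The gene with the most similar profile to each tested member was taken as the one with the smallest root mean square difference of log2 CPM over the 6 libraries, after each gene was centred on its own mean. For *Bgn* it was *Col5a2*, a chain of collagen V, but the distance was wide at 0.788. *Ogn* was nearest to *Msrb3* (0.153), *Vcan* to *Fhl3* (0.136) and *Gpc4* to *Dysf* (0.102). *Hspg2* was nearest to *Soga1* (0.061) and *Gpc3* to *Srgap1* (0.060). The measure mostly follows the size of the difference between the groups.

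The proteoglycan pathway around the members was described with 120 other genes: further core proteins, the enzymes that build and trim the chains, their substrate supply, hyaluronan genes and cleaving enzymes. Of these, 78 were tested, of which 57 rose, 7 fell (4 without S05) and 14 did not pass the threshold, with a median log2 fold change of 1.80 against 0.03 over all tested genes. Another 25 were listed for CPCCs only and 1 for mESCs only (*Xylt1*, a xylosyltransferase that starts the chain, named after its values were seen). The remaining 16 were in neither table (13) or were filtered out (3). For comparison, 31.7% of all tested genes were called higher and 29.7% lower. Of all genes in either table, 15.5% were listed for CPCCs only and 4.67% for mESCs only.

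Among core proteins, 1 of 2 tested further SLRPs rose (*Tsku*, tsukushi, 3.09 on the log2 scale, SE 0.40) and *Omd* fell, a call lost without S01, S02, S04 or S05, while 5 were listed for CPCCs only. Of 9 tested heparan sulfate core proteins 6 rose, led by the glypican *Gpc6* (6.12, SE 0.28), the syndecan *Sdc3* (4.76, SE 0.28) and *Gpc1* (2.95, SE 0.27). *Gpc6* went from 1.88 to 132 CPM. Of the hyalectans, link proteins and other chondroitin sulfate core proteins 2 of 5 tested rose (1 without S01, S02, S03 or S05, and 3 without S04) and 1 fell (0 without S03 or S05), with a median of -0.70. Here *Cspg4* (NG2) rose by 5.76 (SE 0.62), and 8 of the 17 were listed for CPCCs only, among them the hyaluronan receptor *Cd44*, at least 1049-fold higher, and *Ptprz1*, at least 79.6-fold. *Hapln1*, whose product links versican to hyaluronan and whose gene lies 43.5 kb from *Vcan*, was listed for CPCCs only with 38, 0 and 5 counts.

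Among the enzymes, those for chondroitin and dermatan sulfate had the highest median, 3.03, with 12 of 14 tested genes higher and 1 lower. Their largest rises were those of the sulfotransferases *Ust* (4.17, SE 0.38), *Chst14* (4.06, SE 0.27) and *Chst15* (3.95, SE 0.43). Of the heparan sulfate enzymes 11 of 14 rose and 1 fell (2 without S03), with a median of 1.96. They were led by the sulfatase *Sulf1* (4.03, SE 0.37), which removes sulfate groups outside the cell, and by the sulfotransferases *Hs3st1* (3.25, SE 0.45) and *Hs3st3b1* (3.07, SE 0.56). *Hs6st2*, another sulfotransferase, was listed for CPCCs only and was at least 964-fold higher (584-fold without S04). The enzymes of the linkage region, which every chain type except hyaluronan and keratan sulfate shares, had a median of 0.71, with 4 of 6 higher but 2 without S01, S02 or S05. Their largest rises were those of *B4galt7* (1.61, SE 0.29), *Pxylp1* (1.19, SE 0.43) and *Fam20b* (0.78, SE 0.17), of which *Pxylp1* lost its call without S01, S02, S04 or S05.

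For keratan sulfate enzymes 5 of 7 tested rose (3 without S02 or S05, median 1.21), with *Chst2* at 3.03 (SE 0.36), *Chst1* at 2.18 (SE 0.69) and *B4galt4* at 1.96 (SE 0.36). *Chst1* lost its call without S01, S02 or S05. Of the genes that supply sulfate donor and UDP-sugars 8 of 9 rose (median 1.16), but 6 to 7 with any 1 library left out, and 1 fell without S04. The rises were led by *Papss2*, which makes the sulfate donor (3.97, SE 0.45), then *Impad1* (1.83, SE 0.24) and *Slc35d1* (1.75, SE 0.49, not past the threshold without S01). Hyaluronan genes rose in 4 of 6 tested (median 1.62). *Hmmr* fell by 0.78 (SE 0.30, adjusted p = 0.0458 from edgeR), a call lost without S01, S02, S03 or S05, and also with upper-quartile scaling, without TMM, at 10 counts in every library and with missing genes at 0. The hyaluronan synthase *Has2* was listed for CPCCs only and was at least 403-fold higher, and genes of hyaluronan breakdown rose as well (*Cemip* 2.17, SE 0.61; *Hyal1* 2.16, SE 0.27; *Tmem2* 2.14, SE 0.22).

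Of the enzymes that cleave or release proteoglycans 4 of 6 tested rose and 1 fell (median 1.77). The proteases *Adamts15* (3.70, SE 0.62) and *Adamts20* (2.88, SE 0.69) rose, and *Adamts5* and *Adamts1*, listed for CPCCs only, were at least 292-fold (143-fold without S04) and 129-fold higher. *Notum* fell by 2.23 (SE 0.59); it removes a lipid from Wnt proteins and was earlier described as releasing glypicans. The other genes that fell were *Omd*, *Chst3*, *Hpse* (heparanase), *Hmmr* (a hyaluronan receptor of dividing cells), *Tgfbr3* (betaglycan) and *Prg4* (lubricin), of which all but *Omd* were named after their values were seen. Besides *Omd* and *Hmmr*, *Prg4* lost its call when S03, S05 or S06 was left out, while the calls of *Chst3*, *Hpse*, *Tgfbr3* and *Notum* held without any 1 library.

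**Figure D4:**
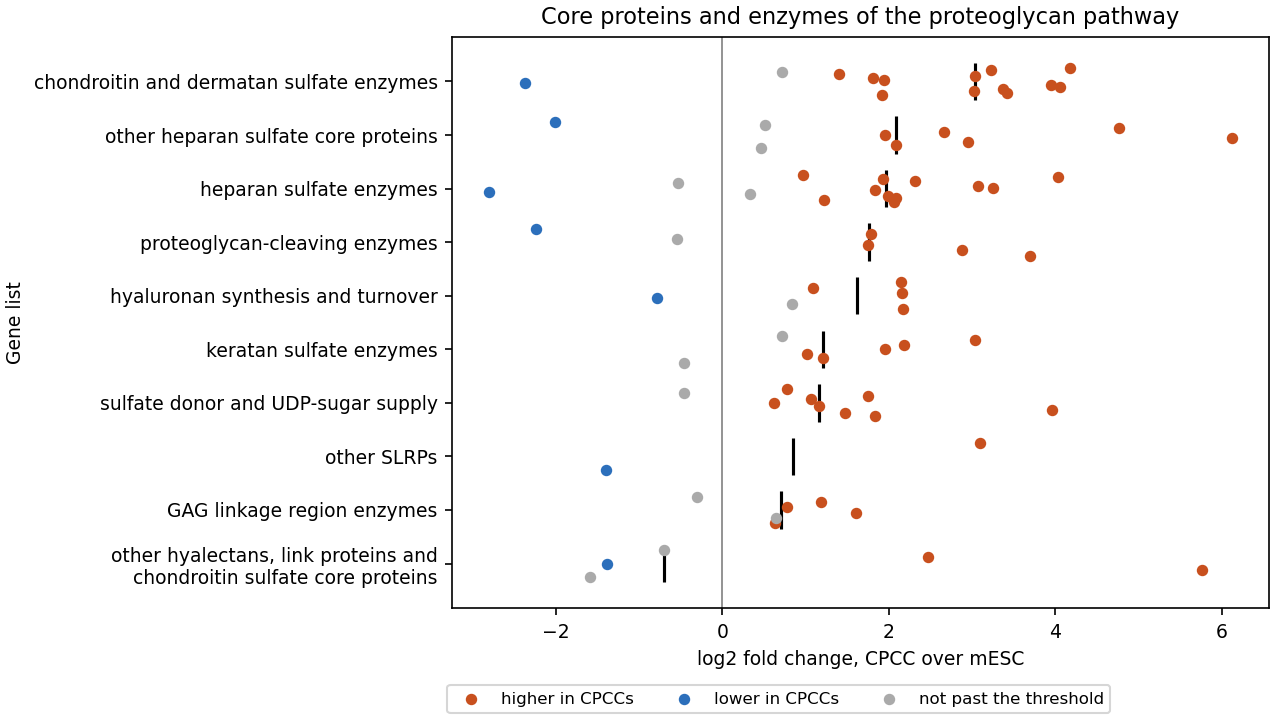
Log2 fold change of CPCCs over mESCs for the 78 tested genes of the 10 pathway lists, 1 point a gene, coloured by its call in edgeR's quasi-likelihood test, with a black bar at each list's median. The medians run from -0.70 for the hyalectan list to 3.03 for the chondroitin and dermatan sulfate enzymes, and genes listed for CPCCs only are not drawn.

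Markers of cell types that the cultures could hold were summed by list in each library, and only some of the sums were higher in CPCCs. The fibroblast and mesenchyme markers (*Col1a1*, *Col1a2*, *Col3a1*, *Pdgfra*, *Pdgfrb*, *Thy1* and *Postn*) summed to 12.1 to 18.7 CPM in mESCs and to 6042 to 9175 CPM in CPCCs, where S05 was highest and S06 lowest, as for *Bgn*, *Dcn*, *Fmod* and *Ogn*. Of these markers 3 of 4 tested were higher, *Pdgfra* was not called (adjusted p = 0.0609 from edgeR), and the other 3 were listed for CPCCs only. Most of the CPCC sum was *Col1a1*, *Col1a2* and *Col3a1* (3537, 3056 and 2076 CPM in S05). *Col1a1*, *Col3a1*, *Pdgfrb* and *Postn* followed the library order of the sum. *Col1a2* and *Thy1* were lowest in S04, and *Pdgfra* was highest in S06 (2.29, 3.52 and 7.45 CPM in S04, S05 and S06). Smooth muscle markers, 1 of 1 tested higher and 4 listed for CPCCs only, summed to 0.44 to 1.32 CPM in mESCs and 5939 to 11077 CPM in CPCCs. Cartilage, bone and tendon markers summed to 120 to 291 CPM in CPCCs against 5.3 to 17.2 in mESCs, and S05 was again the highest library. Most of that sum was *Col2a1* (without it 36.8 to 62.6 against 3.66 to 10.8 CPM), the 1 of 2 tested that rose. *Runx2*, *Scx* and *Tnmd* were listed for CPCCs only, *Bglap* and *Matn1* for mESCs only, and *Sp7* in neither table, and *Acan* had a log2 fold change of -1.59 (adjusted p = 0.18 from edgeR).

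The 6 naive pluripotency markers were all lower in CPCCs, at 93.9 to 145 CPM against 3443 to 3603 in mESCs. The summed cardiomyocyte markers overlapped, at 187, 49.3 and 73.3 CPM in CPCCs and 77.3 to 92.9 CPM in mESCs, where most of the sum was *Ttn*, which fell. Without *Ttn* the sums were 143, 36.5 and 50.6 CPM against 7.73 to 14.6 CPM. *Tnnt2* rose by 5.01 on the log2 scale, *Actn2* did not pass the threshold, and *Myh6*, *Myh7* and *Nkx2-5* were listed for CPCCs only. The cardiac factor *Nkx2-5* had 16, 0 and 8 counts. The neural sum was higher in CPCCs (567 to 593 against 41.9 to 47.8 CPM), with 4 of 4 tested higher and *Pax6* listed for CPCCs only. So were those of extraembryonic endoderm (145 to 248 against 15.8 to 31.3 CPM, 3 of 5 tested higher, *Afp* and *Ttr* in neither table) and blood (69.5 to 117 against 0.15 to 1.08 CPM, 1 of 1 tested higher, *Ptprc* listed for CPCCs only, *Gata1* and *Hbb-y* in neither table). Most of the blood sum in CPCCs was *Runx1*, the tested gene (102, 89.5 and 69.1 CPM in S04, S05 and S06). *Ptprc* had 157, 23 and 3 counts in these libraries. Endothelial markers were lower in sum (11.8 to 23.9 against 92.3 to 101 CPM, 1 of 2 tested lower, *Tie1* in neither table), which was *Pecam1*: without it the sums were 7.34 to 19.9 CPM in CPCCs against 3.25 to 7.06 CPM. *Cdh5* and *Kdr* were listed for CPCCs only, at least 11.5-fold and 7.46-fold higher, the former 3.28-fold without S04. The sums without *Col2a1*, *Ttn* or *Pecam1* were added after the values were seen. The part of these cell types in the rise of the proteoglycan genes was not tested.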

How the data were processed

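Bulk RNA-seq of 3 mESC and 3 CPCC libraries was made from polyA-selected RNA with SMART-Seq v4 cDNA and read as paired ends. The values the authors deposited are estimated counts for each gene, without normalization and with both alleles together, in a table for mESCs and another for CPCCs. Between 17.9% and 21.5% of a library's values are not whole, and each table leaves out genes with a sum under 10 counts. The submitters' processing notes name mm10 and STAR 2.7. The counter and its use of strand are not given in the sources used here. Table ends lie 1 base past the RefSeq end for 56.9% of 15881 matched genes.

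The 10 members and all gene lists were chosen with earlier results of these data known. Counts were rounded to whole numbers. Of 13001 genes in both tables, edgeR's filterByExpr removed 530. The test was edgeR 4.0.16 quasi-likelihood (R 4.3.3) with TMM, and calls were made below 0.05 after Benjamini-Hochberg adjustment. The mESC level of a missing gene was taken as 3 counts per library, 9 in all (fractional sums up to 10 are possible). Intervals cover counting error only. Each bound is the CPCC mean over that assumed mESC level and includes no counting error on either side. Every pair of replicate libraries differed beyond sampling noise. Within a group the libraries come from separate clones according to the methods, and both groups come from the same clones.

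Named besides the members were cluster neighbours, the nearest profile of each tested member, and from each list the 3 largest changes past the threshold without overlap, with up to 2 genes of 1 table bound at 10-fold or more. Alternatives were DESeq2 1.42.0, upper-quartile scaling, no TMM, other filters, missing genes at 0 or 3 counts, and leaving out each library. Scripts were tested on simulated data. Figures used matplotlib 3.10.9. Allele-specific, single-cell and chromatin data were not analysed here.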

Additional observations from a re-analysis of the deposited data

How the results depend on the processing

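No paired analysis was possible because the columns carry no replicate number. Each of the 6 tested members stayed higher in CPCCs and past the threshold under every alternative that could test it, with log2 fold changes of 9.45 to 10.78 for *Bgn*, 6.02 to 6.93 for *Ogn*, 3.74 to 4.15 for *Gpc4*, 3.12 to 3.52 for *Vcan*, 2.52 to 2.83 for *Hspg2* and 1.98 to 2.27 for *Gpc3*. The largest adjusted p in edgeR or DESeq2 was 0.000611, for *Gpc3* without S01. A minimum of 10 counts in every library left 4 members to test, all higher, since *Bgn* and *Ogn* fall under it in mESCs. The number of genes called ran from 7507 without TMM to 7896 with DESeq2 at the same filter, against 7656. It was 6550 at 10 counts in every library, 6536 to 7895 with 1 library left out, and 8848 or 9011 with missing genes at 0 or 3 counts, where more genes are tested. Setting missing genes to 0 moved the median over all genes to 0.17. Of the pathway genes the number that fell went from 7 to 4 at 10 counts in every library and ranged from 4 (without S05) to 7 with 1 library left out, and the number that rose ranged from 50 to 58. No pathway gene changed sign. The calls of *Omd*, *Hmmr*, *Prg4*, *Pxylp1*, *Chst1*, *Slc35d1*, *B3gnt7*, *Slc35b2*, *Spock1*, *B3galt6* and *Ugp2* were lost when some library was left out. Of these, *B3gnt7*, *Slc35b2*, *Spock1*, *B3galt6* and *Ugp2*, all higher in CPCCs in the main fit, were named after their values were seen. Depth limits *Fmod*, *Aspn* and the mESC values of *Bgn* and *Ogn*.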
